A study of Arabidopsis thaliana with 6 samples.

Results

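AT3G07820, AT5G45880 and ACT11 are grouped here as late pollen genes. They are a pollen polygalacturonase gene, a gene for an Ole e 1-like pollen protein and an actin gene of reproductive tissues. Whether their signal in these plants came from pollen was not tested. The 3 genes were taken from 13350 genes that the probe annotation names, by symbol or locus, and each is measured by 1 probe set. They were chosen because their levels differed between the genotypes in these arrays, so that difference is described below without a test. Total RNA of whole Arabidopsis thaliana plants of the Columbia-0 ecotype was hybridised to Affymetrix arrays, with 3 arrays for wild-type plants and 3 for the cax1cax3 double mutant, in which the vacuolar cation/H+ exchangers CAX1 and CAX3 are mutated. All plants were 40 days old, had spent 10 days on 0.5-strength medium with 0.5% sucrose and 3 weeks in soil under 16 hours of light at 22 °C, and had received no treatment that the labels name. The mutant was beginning to show necrotic lesions when the plants were used. The alleles of the mutant, and whether a sample pools several plants, are not given in the sources used here.

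Pollen matures inside the anther in 2 phases of gene activity, and the late phase stores transcripts for germination and tube growth. Polygalacturonases cut the pectin of cell walls, and pollen carries many of them for loosening walls as the tube grows. Ole e 1-like proteins are secreted proteins named after the main olive pollen allergen. Actin filaments carry the vesicles that build the tube tip, and plants use separate actin genes in reproductive and in vegetative organs. ACT11 is known from Arabidopsis as an actin of pollen and ovules.

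The polygalacturonase gene AT3G07820 had levels of 8.43, 8.11 and 7.19 (log2) on wild-type arrays 1, 2 and 3, and of 4.41, 4.39 and 5.41 on the mutant arrays. All wild-type arrays lay above all mutant arrays, with wild-type array 3 the lowest of its genotype and mutant array 3 the highest of its own. The mean was 7.91 ± 0.64 in the wild type and 4.73 ± 0.58 in the mutant (SD, n = 3), a difference of -3.18 ± 0.39 log2 units (SE). Background was read from 27 control probe sets for bacterial transcripts, whose median was 4.04 and whose 95th percentile was 4.70. Mutant arrays 1 and 2 were within that range, and mutant array 3 was 0.71 log2 units above its 95th percentile. With those 2 arrays set to the 95th percentile, AT3G07820 was at least 7.90-fold lower in the mutant.

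AT5G45880, the Ole e 1-like gene, read 8.75, 8.55 and 7.55 on the wild-type arrays and 5.93, 5.42 and 5.23 on the mutant arrays. The genotypes did not overlap, and wild-type array 3 was again the lowest of its genotype, as for 36.5% of all probe sets. Its mean was 8.29 ± 0.64 in the wild type and 5.53 ± 0.36 in the mutant (SD, n = 3), a difference of -2.76 ± 0.34 (SE), or 6.77-fold. Unlike AT3G07820, it stayed above the 95th percentile of the bacterial probe sets on every mutant array, by 0.54 to 1.24 log2 units.

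The levels of ACT11 were 9.39, 9.26 and 9.59 on the wild-type arrays and 8.27, 8.19 and 7.91 on the mutant arrays. The genotypes did not overlap, but here wild-type array 3 was the highest of its genotype and mutant array 3 the lowest. The mean was 9.41 ± 0.17 in the wild type and 8.12 ± 0.19 in the mutant (SD, n = 3), a difference of -1.29 ± 0.14 (SE), or 2.45-fold. ACT11 remained 3.21 to 3.57 log2 units above the bacterial 95th percentile on the mutant arrays, so its transcript was still well measured there. Arrays that did not overlap in this direction were found for 13% of all probe sets, and a difference of at least 2-fold downward for 1.97%. The 3 genes were chosen on this contrast, so nothing is read from their standing against those shares. In whole-plant RNA, fewer cells of a type and less RNA per cell cannot be told apart.

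**Figure D1:**
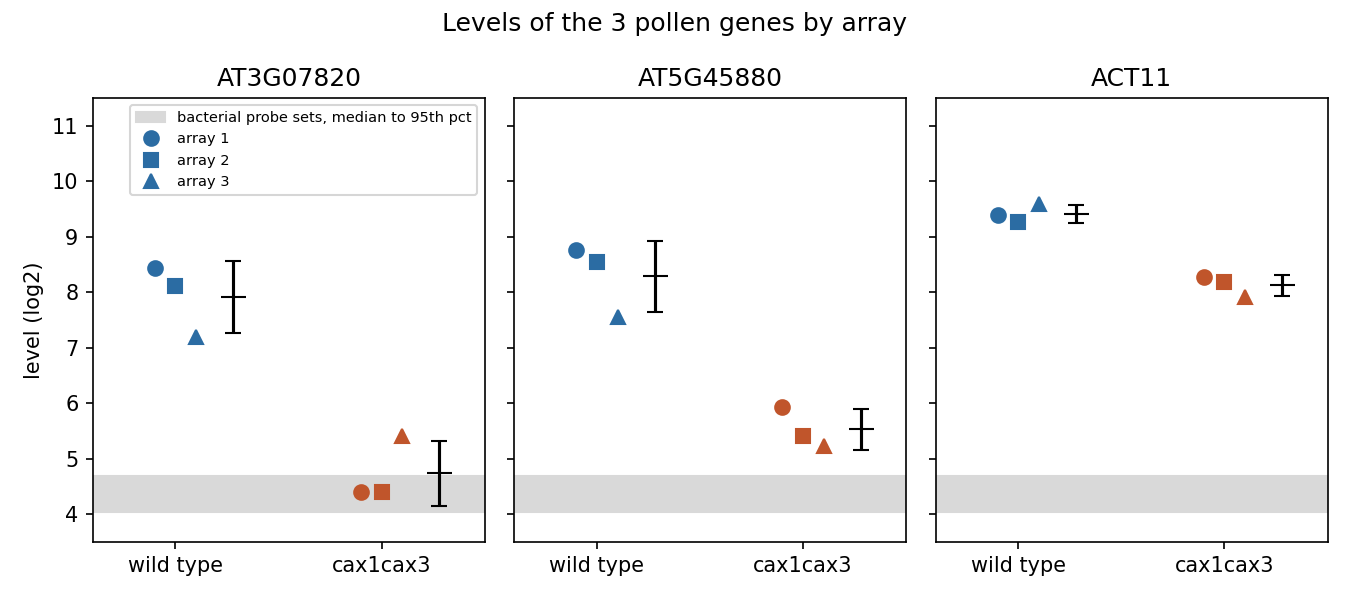
Log2 level of AT3G07820, AT5G45880 and ACT11 on each array, by genotype, with array 1 as a circle, array 2 as a square and array 3 as a triangle. Black bars are the mean ± SD of 3 arrays and the grey band runs from the median (4.04) to the 95th percentile (4.70) of the bacterial probe sets. Mutant arrays 1 and 2 of AT3G07820 lie in the band, and every mutant array of ACT11 lies far above it.

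The size of the difference varied with the array number for the polygalacturonase gene and less for the other genes. Arrays carry the numbers 1 to 3 in each genotype. Within numbers 1, 2 and 3, AT3G07820 was lower in the mutant by at least 3.74, at least 3.42 and by 1.79 log2 units, where the first 2 values are bounds against the bacterial 95th percentile. AT5G45880 differed by -2.82, -3.13 and -2.32 log2 units, so number 3 again gave the smallest difference. For ACT11 the differences were -1.12, -1.07 and -1.68, with the largest in number 3. When any 1 array was left out, the difference ran from -3.54 to -2.92 for AT3G07820, from -3.12 to -2.52 for AT5G45880 and from -1.37 to -1.18 for ACT11. The range for AT3G07820 takes its mutant values within the bacterial range as read.

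The 3 genes therefore shared the genotype difference. The wild-type spread was alike in AT3G07820 and AT5G45880 and smaller in ACT11. Among the wild-type arrays AT3G07820 spanned 1.24 log2 units, AT5G45880 1.20 and ACT11 0.33. The wild-type SD of AT3G07820 and of AT5G45880 each exceeded that of 97.5% of all probe sets, and the SD of ACT11 exceeded that of 62.7%. Array number 3 stood 0.72 and 0.73 log2 units below the wild-type mean for AT3G07820 and AT5G45880, and 0.18 above it for ACT11.

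In the mutant, number 3 stood 0.67 above the mean for AT3G07820, 0.29 below it for AT5G45880 and 0.21 below it for ACT11. Over the 6 arrays, Pearson's r between levels was 0.948 for AT3G07820 with AT5G45880, 0.873 for AT3G07820 with ACT11 and 0.921 for AT5G45880 with ACT11. After each genotype's mean was taken off, these became 0.415, -0.873 and -0.174. Over the 3 wild-type arrays alone they were 0.996, -0.782 and -0.836. The values over 6 arrays take the mutant levels of AT3G07820 within the bacterial range as read. The arrays share their RNA and hybridisation across genes, so these values describe 6 arrays and were not tested.

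**Figure D2:**
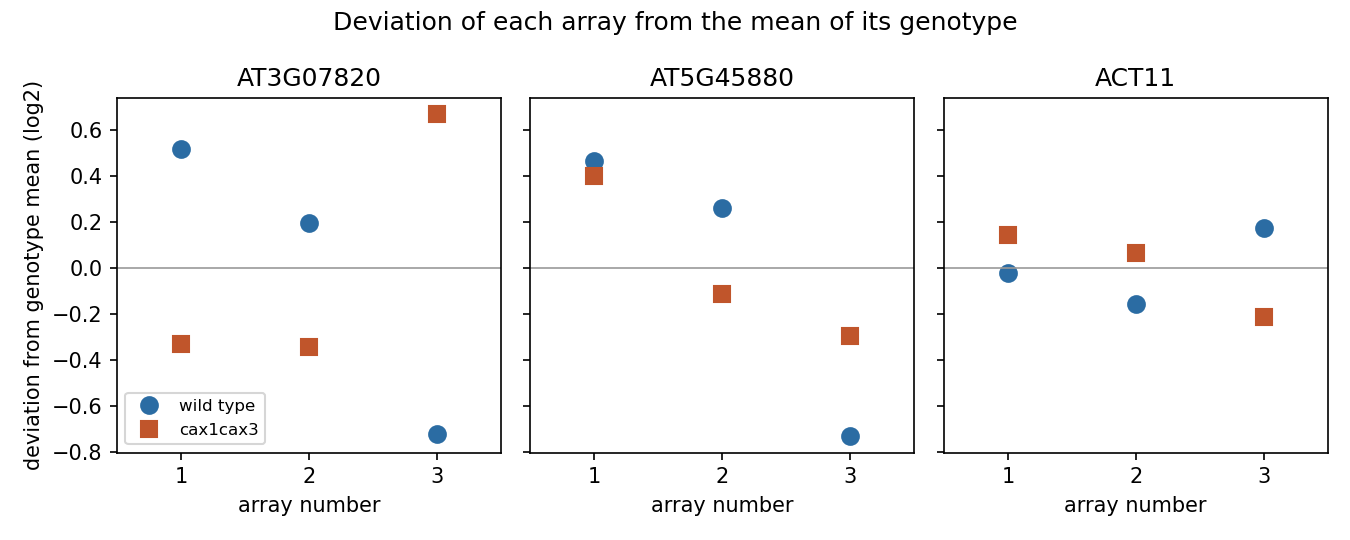
Deviation of each array from the mean of its genotype (log2) against the array number, for the wild type (circles) and the mutant (squares). Array 3 lies 0.72 below the wild-type mean and 0.67 above the mutant mean for AT3G07820, and 0.18 above and 0.21 below for ACT11.

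Across the whole table the first principal component held 52.5% of the variance and separated the genotypes, and the second, with 28.1%, set both arrays numbered 3 apart. Array medians ran from 7.03 to 7.08. The 3' signal of the actin control probe sets was 0.71 to 0.76 log2 units above the 5' signal in the wild type and 0.67 to 0.93 above it in the mutant. For the GAPDH control probe sets the 3' signal minus the 5' signal was -0.35 and -0.40 on wild-type and mutant array 3, and -0.20 to -0.08 on the other arrays. Its part in the array 3 pattern of the 3 genes was not tested. Photosynthesis genes of leaves were strongly detected in both genotypes, as for RCA, which encodes rubisco activase, with a mean of 13.82 ± 0.13 in the wild type and 13.64 ± 0.13 in the mutant (SD, n = 3). PRK, for phosphoribulokinase, had 13.02 ± 0.14 and 12.60 ± 0.07 without overlap and was not called (-0.42 ± 0.11, limma adjusted p = 0.0793, and 0.0409 with array weights). The root hair genes EXPA7 and EXPA18 had means of 4.92 to 5.19, a little above the bacterial range, and were not called (adjusted p = 0.859 and 0.469). The measured genes of early flower development, SPL and UFO, had means within the bacterial range in both genotypes. The floral homeotic genes on that list were not analysed here, so the share of flowers in each sample had no direct measure.

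Other genes of late pollen were drawn from lists of wall, cytoskeleton, signalling and transport genes, with 68 entries. Whether the signal of the listed genes came from pollen was not tested. Of these, 16 were measured and kept, including the 3 genes above, and none belonged to the transport list. Among the 13 others, AT5G07430, AT59 and TUB9 fell in the mutant, which is 23.1%, where 3.28% of all probe sets were called lower by limma at an adjusted p under 0.05. None rose by limma, where 2.34% of all probe sets did. At an unadjusted limma p under 0.05, 5 of the 13 had a negative difference and none a positive difference. The share of all probe sets at that threshold was not counted. TUB9 was already known to fall in these arrays when the list was drawn up, and without it 2 of 12 were called lower (16.7%). Another 6 measured entries had been dropped because their locus has no symbol. Keeping them, a setting chosen after seeing the data, gave 3 of 19 called lower, TUB9 included (15.8%). The median difference of the 13 was -0.18 log2 units, against 0.01 over all probe sets tested. Of the 13, 4 had a wild-type mean within the bacterial range and so could hardly show a fall. The count of 3 was 0 without wild-type array 1 or mutant array 2, and 1 without wild-type array 2 or mutant array 1.

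AT5G07430 entered the wall list as a pectin methylesterase locus, an enzyme class that trims methyl groups from pectin. It read 6.75, 7.30 and 6.04 on the wild-type arrays and 4.84, 4.64 and 4.74 on the mutant arrays. The genotypes did not overlap, and the mutant arrays lay close to the bacterial range. The difference was -1.96 ± 0.29 (SE, n = 3, limma adjusted p = 0.0162), and the call did not survive the loss of array 1 of the wild type (adjusted p = 0.0598) or array 2 of the mutant (adjusted p = 0.0870).

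AT59, listed as a pollen pectate lyase gene, had values of 5.34, 5.22 and 5.08 in the wild type and 4.52, 4.43 and 4.82 in the mutant. It fell by 0.62 log2 units to a mean within the bacterial range (limma adjusted p = 0.0477). With the array number as a block its adjusted p was 0.0573, and it kept its call in 1 of 6 fits without an array (adjusted p up to 0.169). AT5G07420, another locus listed for pectin methylesterase, was not called (-0.40 ± 0.21, adjusted p = 0.368), and its means of 4.67 ± 0.40 and 4.27 ± 0.15 (SD, n = 3) both lay within the bacterial range.

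None of the 5 measured relatives of the polygalacturonase and Ole e 1-like genes was called by limma. With 3.28% of all probe sets called lower, no call among 5 genes is near the background. However, 2 of them, AT5G48140 and AT1G29140, had mutant arrays all below the wild type, as 13% of all probe sets did. Both had an unadjusted limma p under 0.05, a threshold whose share of all probe sets was not counted. Among the polygalacturonase loci, AT5G48140 read 5.93, 5.54 and 5.22 in the wild type and 4.81, 4.42 and 4.75 in the mutant. It was not called (-0.90 ± 0.20, limma adjusted p = 0.0529), although its arrays did not overlap, and it was called with the array number as a block (adjusted p = 0.0331). AT3G07840, which lies 2 protein-coding genes along from AT3G07820 in the TAIR10.1 gene order, had 5.14 ± 0.10 in the wild type and 5.41 ± 0.35 in the mutant (SD, n = 3). Its arrays overlapped and it was not called (0.27 ± 0.18, adjusted p = 0.487). The other neighbours on the list, AT3G07830 and AT3G07850, were not analysed here.

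Among the Ole e 1-like loci, AT1G29140 showed the wild-type order of AT5G45880, with 7.19, 6.57 and 5.72 on arrays 1, 2 and 3. The mutant arrays read 5.10, 4.54 and 5.26, below all wild-type arrays. With a difference of -1.53 ± 0.38 it was not called (limma adjusted p = 0.0708), and it was called without wild-type array 3 (adjusted p = 0.0298) and with array weights (adjusted p = 0.0162). AT5G10130 had overlapping arrays near the bacterial range, with means of 4.91 ± 0.31 and 4.92 ± 0.26 (SD, n = 3). AT1G78040 was highly expressed in both genotypes, at 13.70 ± 0.09 in the wild type and 13.52 ± 0.13 in the mutant, and was not called (adjusted p = 0.439).

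Beside ACT11, the cytoskeleton list held ACT12, TUB9 and TUA1 as measured genes. ACT12, another pollen actin gene, had means within the bacterial range in both genotypes, 4.44 ± 0.18 and 4.31 ± 0.08 (SD, n = 3). TUB9, a beta-tubulin gene of pollen, read 11.44, 11.42 and 11.49 in the wild type and 11.00, 10.94 and 10.86 in the mutant. It fell by 0.52 log2 units (limma adjusted p = 0.0249) and kept its call in 1 of 6 fits without an array (adjusted p up to 0.102). TUB9 had the same array order as ACT11 in both genotypes, and r between them was 0.997 over the 6 arrays and 0.954 after genotype means were taken off. With AT3G07820, r of TUB9 after genotype means were taken off was -0.85. The level of TUB9 was far above that of ACT12, and the tissue behind its signal was not tested.

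TUA1, an alpha-tubulin gene, had 9.18 ± 0.04 and 9.11 ± 0.09 (SD, n = 3) and was not called (adjusted p = 0.768). The vegetative actin genes on the lists were not analysed here. The array's 6 control probe sets labelled actin, whose gene the file does not give, were lower in the mutant by 0.30 to 0.48 log2 units without overlap. Arrays did not overlap in this direction for 13% of all probe sets tested. By their names the controls mark parts of the same transcripts, so they are not 6 separate observations. These controls lay outside the fit and were not tested.

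The receptor kinase genes ANX1 and ANX2, which keep growing pollen tubes intact, had means within the bacterial range in both genotypes. None of the 5 measured genes for pollen regulators and sperm was called in either direction by limma. None passed an unadjusted limma p under 0.05, and the share of all probe sets at that threshold was not counted. The list includes the MADS-box genes AGL65 and AGL30, which act in maturing pollen, and MGH3, a histone gene of male gametes. AGL65 had 5.98 ± 0.03 in the wild type and 6.01 ± 0.04 in the mutant (SD, n = 3). MGH3 had 4.84 ± 0.13 and 4.93 ± 0.18, only a little above the bacterial range, and so could hardly show a fall. The median difference of these 5 genes was 0.03. With 3.28% of all probe sets called lower, no call among 5 genes is near the background, and AGL66 and AGL104 had means within the bacterial range in both genotypes.

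**Figure D3:**
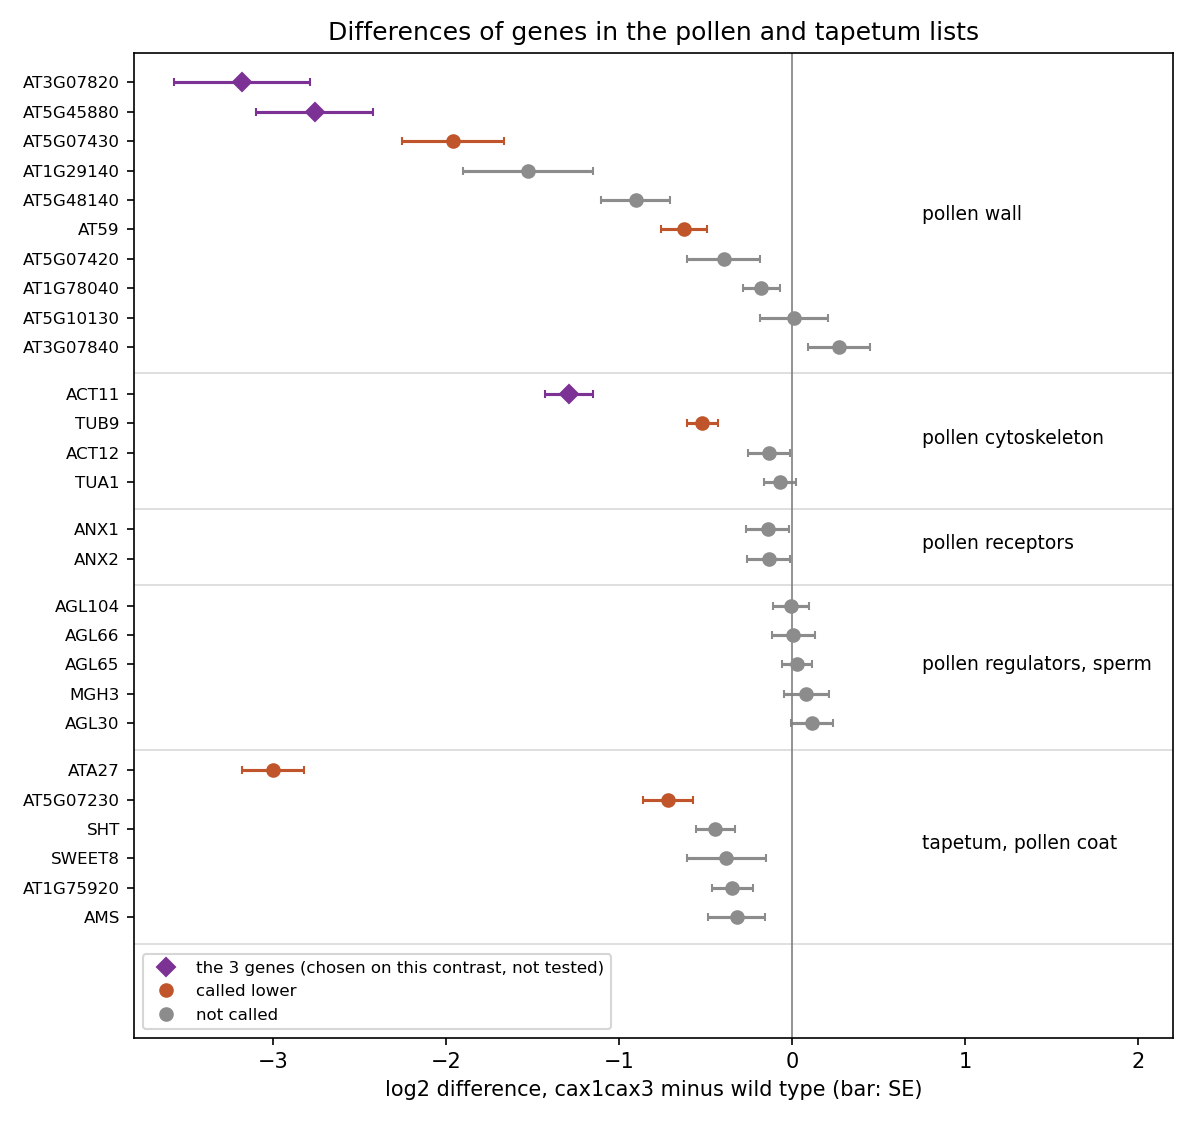
Log2 difference, mutant minus wild type, of each measured gene on the pollen and tapetum lists, with bars of 1 SE from limma. Diamonds are the 3 genes chosen on this contrast, which were not tested. AT5G07430, AT59 and TUB9 are the genes of the late pollen lists called lower, at -1.96, -0.62 and -0.52, and the regulators lie near 0.

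Genes of the tapetum, the anther layer that feeds pollen, and of seeds were listed for comparison. ATA27, AT5G07230 and DELTA-VPE were on these lists with their fall in these arrays already known, so the counts are not independent evidence. Of 6 tapetum and pollen coat genes, ATA27 (from 7.76 ± 0.34 to 4.77 ± 0.11, SD, limma adjusted p = 0.00209) and AT5G07230 (-0.71 ± 0.14, adjusted p = 0.0391) fell, where 3.28% of all probe sets did. Only these 2 of the 6 were called, and the fall of both was already known, so the share says nothing about the list. ATA27 kept its call in all 6 fits that left out an array, and AT5G07230 in 2 of them (adjusted p up to 0.151). None of the 6 rose by limma. At an unadjusted limma p under 0.05, 4 of the 6 had a negative difference, ATA27 and AT5G07230 included, and none a positive difference. The share of all probe sets at that threshold was not counted. ATA27, a beta-glucosidase gene, read 7.82, 8.07 and 7.40 in the wild type and 4.79, 4.65 and 4.86 in the mutant. Its lowest wild-type value was also on array 3, as for 36.5% of all probe sets. Its r with AT3G07820 was 0.975 and with AT5G45880 0.975. SHT, of spermidine conjugate synthesis in the tapetum, was not called (-0.44 ± 0.11, limma adjusted p = 0.0791) and was called with the array number as a block (adjusted p = 0.0412). AT1G75920, also on the tapetum list, was not called (-0.35 ± 0.12, adjusted p = 0.169). All 3 measured seed genes, DELTA-VPE, OLEO3 and BAN, fell, against the same share of 3.28%, and each was called in at most 2 of the 6 fits that left out an array. The pollen, tapetum and seed genes come from different tissues of flower and fruit, and the part of organ share in the differences above was not tested.

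The genes whose profile over the 6 arrays was most like that of each gene were sought among 1334 named probe sets that varied by at least 1 log2 unit and whose higher genotype mean was above the median of all probe sets, 7.05. Pearson's r was the measure of likeness. For AT3G07820 the closest were AT1G75880 (r = 0.996), AT3G01270 (0.991), AT1G78170 (0.985), DELTA-VPE, a vacuolar processing enzyme gene of the seed coat (0.981), and AT3G28750 (0.980). AT1G75880 read 7.68, 7.78 and 7.05 in the wild type and 5.04, 4.99 and 5.60 in the mutant. It shared the low wild-type array 3 and the high mutant array 3, and its r with AT3G07820 was still 0.960 after genotype means were taken off.

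For AT5G45880 the closest genes were AT5G19580 (r = 0.991), AT2G39850 (0.990), AT3G28750 (0.989), AT3G60290 (0.989) and AT3G01750 (0.988). AT3G28750 was thus among the 5 closest genes of both, with 8.80, 8.78 and 7.77 in the wild type and 5.92, 5.44 and 5.84 in the mutant. The gene tables used give no description of these loci.

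The closest genes to ACT11 were AT5G64030 (r = 0.994), RALFL24, for a RALF-like signalling peptide (0.993), AT5G21105 (0.989), BGLU40, for a beta-glucosidase (0.988), and OCT5, for an organic cation/carnitine transporter (0.988). OCT5 read 7.72, 7.72 and 8.24 in the wild type and 6.67, 6.48 and 6.40 in the mutant, the same rank of array 3 as in ACT11. None of these was among the 5 closest of AT3G07820 or AT5G45880.

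An r above 0.95 was reached by 34 of the 1334 probe sets for AT3G07820 (2.55%), 44 for AT5G45880 (3.30%) and 70 for ACT11 (5.25%). AT3G07820 and AT5G45880 shared 17 of these, which is 50.0% of the first set and 38.6% of the second. AT3G07820 and ACT11 shared 2, or 5.88% and 2.86%. AT5G45880 and ACT11 shared 13, or 29.5% and 18.6%. With 6 arrays in 2 genotypes a high r largely follows the genotype difference on which the 3 genes were chosen, and the probe sets within a set are not independent.

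**Figure D4:**
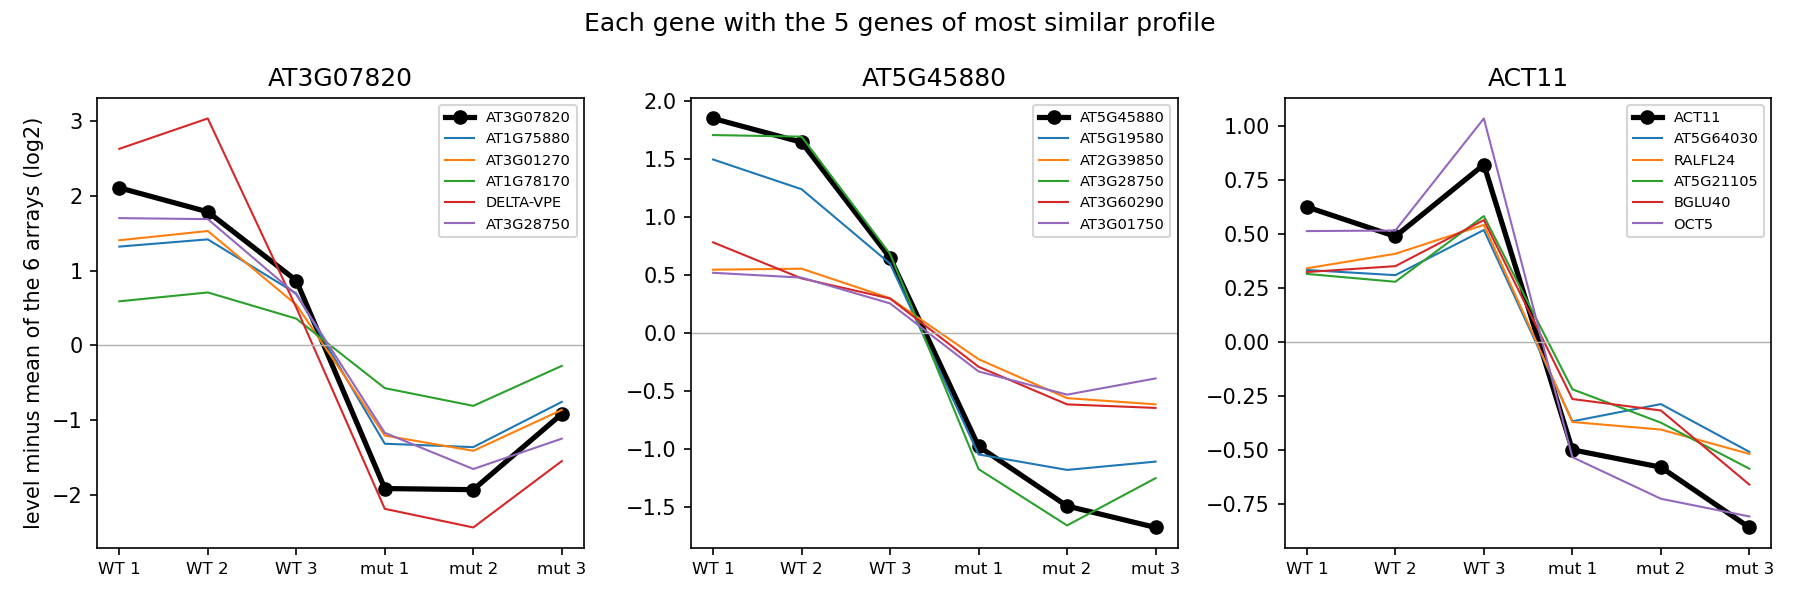
Level minus the mean of the 6 arrays (log2) for each of the 3 genes (black) and its 5 closest named genes, on wild-type arrays 1 to 3 (WT) and mutant arrays 1 to 3 (mut). Lines only join the values of a gene. The genes nearest AT3G07820 are higher on mutant array 3 than on mutant array 2, and those nearest ACT11 peak at wild-type array 3.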

How the data were processed

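Total RNA (5 µg per sample, 15.0 µg of fragmented cRNA) was hybridised to 1 array per sample, 3 per genotype, per the labels' protocols. The authors deposited log2 expression values per probe set, a scale read from their range of 3.35 to 14.5. GCOS 1.1.2 and RMA appear, with no stated role, among the tools of the submitters' processing notes. Settings are not given in the sources used here. After 64 control probe sets were left out, 22746 were fitted with limma 3.58.1 (R 4.3.3) without covariates or further normalization, with Benjamini-Hochberg adjustment over all of them and a threshold of 0.05. Of the probe sets, 13513 name 1 gene, and symbols were updated through a RefSeq table of TAIR10.1. A gene with several probe sets was represented by the one with the highest mean.

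The 3 genes and the lists were chosen with earlier results of these data known. TUB9, ATA27, AT5G07230 and DELTA-VPE had been seen to fall. Of the entries, 6 measured ones whose locus has no symbol in the table were dropped, by a rule on names. Family names of loci are those under which they were listed. Named genes are the 3 genes, the measured late pollen genes, up to 4 genes of each other list by adjusted p, and the 5 genes closest to each of the 3. The fit was also run on simulated data with independent noise on each array. That noise lacks the deviations shared by same-numbered arrays, so the run does not show how the fit performs on these arrays. The number of arrays limits the precision.

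The labels do not say whether samples were grown separately, so the p-values reflect only how these samples vary, possibly for technical reasons. Same-numbered arrays departed from the means of their genotypes in the same direction (r = 0.433, 0.292 and 0.471 over probe sets for numbers 1, 2 and 3, against -0.411 to 0.120 between different numbers). Deviations from a mean cancel out within a genotype, so agreement within numbers pulls down the values between different numbers. The contrast between the 2 kinds of value is thus partly fixed in advance. On the agreement within numbers, they were taken as pairs in a blocked fit, given where it changes a call. The pairing comes from this check on the same arrays and not from the labels.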

Additional observations from a re-analysis of the deposited data

How the results depend on the processing

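The differences of AT3G07820, AT5G45880 and ACT11 moved by less than the SD pooled over both genotypes (0.614, 0.521 and 0.178) under quantile normalization, the replicate block, array weights and every fit without an array. With array weights they were -3.52, -2.87 and -1.18. The late pollen genes called lower, the 3 chosen genes left out, numbered 3 with the block, 4 with quantile normalization, 2 with the dimmest probe sets left out, 5 with array weights and 0 to 3 without an array. No late pollen gene was called higher under any of these. Over all probe sets, 747 were lower and 532 higher, against 1171 and 1053 with the block, 1560 and 1286 with array weights, and 147 to 947 and 108 to 797 without an array. The block changed the calls of AT5G48140, AT59 and SHT and of no other gene named on a list. Keeping the 6 entries without a symbol, chosen after seeing the data, left the count at 3, of 19 genes. Genes that were not called and had differences near 0 changed sign. With quantile normalization AT5G10130 was at -0.0016 and AGL66 at -0.0093. With array weights AT5G10130, MGH3, AGL66 and EXPA7 were at -0.029, -0.027, -0.046 and -0.045. Without an array AT5G10130 ran from -0.14 to 0.17, AGL66 from -0.10 to 0.094, UFO from -0.10 to 0.10, SPL from -0.24 to 0.0038 and EXPA7 from -0.0065 to 0.18. The causes were not tested. Genes within the bacterial range, such as ACT12, ANX1 and ANX2, had too little signal to show a fall.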
